A study of Arabidopsis thaliana with 42 samples.

Results

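Aux/IAA proteins are the repressors of the auxin response, and 10 of their genes are described here in Arabidopsis thaliana: IAA1, IAA2, IAA3, IAA4, IAA5, IAA6, IAA7, IAA14, IAA17 and IAA19. The members were chosen by locus, taking each row of the main expression table whose transcript identifier begins with one of the 10 listed loci. This gave 17 transcripts of 10 genes, out of 48359 transcripts of 27655 genes in all. The list was drawn up with earlier results of these data known, in which the heat responses of IAA2, IAA3 and IAA4 at 90 min differed between the genotypes. That contrast, and upf against wild type at 90 min, are therefore given as values without a test. Other comparisons with the 90 min or unheated libraries share data with that contrast. Their p-values for IAA2, IAA3 and IAA4 are not independent of the choice.

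Auxin brings Aux/IAA proteins to the F-box receptors TIR1 and AFB, which mark them for destruction through a short peptide called the degron. Without auxin they bind auxin response factors (ARF) and recruit TOPLESS corepressors, which keeps auxin genes off. Many Aux/IAA genes are themselves switched on by auxin within minutes, and the repressor proteins are short-lived, so transcript and protein levels need not move together.

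The material was whole 10-day-old seedlings, with 3 libraries in each of 14 groups. The mutant, upf, carries upf3-1 and upf1-5 together in Columbia-0 (Col-0) and is labelled as compromised in nonsense-mediated mRNA decay (NMD), which removes transcripts whose stop codon lies early. It was sampled before heat and after 15, 30, 45 and 90 min at 44 °C. Wild-type Col-0 seedlings were heated for 15, 30, 45 and 90 min with cycloheximide (CHX), an inhibitor of translation that the labels give at 10 µg/L in the liquid medium. Wild-type seedlings without CHX were taken at 0, 15, 30, 45 and 90 min. Transfer of the seedlings into the liquid medium took place 3 h into the light period, per the labels' protocol. Each replicate came from several plants, per the series text. No group had CHX without heat, and none was left unheated after 0 min, so heat cannot be told apart from time in the medium or time of day.

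Levels are the authors' normalized counts, whole numbers summed here over the transcripts of a gene and averaged over the 2 lanes of a library. The sum of a library, in units of 1e6, ran from 14.7 to 31 (median 20.3). In 34 of the 84 lane columns low values skip whole numbers in steps of up to 2.44, so a value of a few units can be 1 or 2 reads. The mutant label was checked on its targets: UPF1 stood at 636 ± 161 in unheated upf, against 2149.8 ± 140.2 in unheated wild type (SD, n = 3 each), and UPF3 at 169.7 ± 25.8, against 654.5 ± 13.6. The library of upf at 30 min, replicate 3, had the lowest correlation with its group mates (0.978). Results that rest on it are given with and without it. Shoot and root markers were all detected, as were 3 seed genes. The summed level of 5 root markers was 5858 ± 461 in wild type at 90 min, against 33568 ± 5722 before heat. In upf it was 2809 ± 320 at 90 min, against 27321 ± 1597 before heat, and with CHX at 90 min it was 3727 ± 421. Seed genes summed to 6584 ± 1950 in unheated upf, against 2297 ± 3279 in unheated wild type. The part of these shifts in the results was not tested, and in whole seedlings fewer cells of a type and less RNA per cell cannot be told apart.

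The degron core is what makes a protein an Aux/IAA target of auxin, and it is shown because it checks the family label in the reference sequence. Codons for its core residues, glycine, tryptophan, proline and proline, were found in the coding sequence of all 17 transcripts of all 10 genes. The windows of 24 bases, from the TAIR10.1 reference in RefSeq, read along the coding strand with the 12 bases of the core codons in capitals.
IAA1 (chr4:8361439-8361462, plus strand): atcgttGGATGGCCTCCAgtgaga
IAA2 (chr3:8181390-8181413, minus strand): atcgttGGTTGGCCACCAgtgaga
IAA3 (chr1:1129022-1129045, minus strand): attgttGGATGGCCACCAgttaga
IAA4 (chr5:17550743-17550766, plus strand): attgttGGATGGCCACCAgttaga
IAA5 (chr1:5366278-5366301, minus strand): gttgtgGGTTGGCCACCGgtttgt
IAA6 (chr1:19673326-19673349, minus strand): gcggtgGGATGGCCACCTgtgtgt
IAA7 (chr3:8195571-8195594, plus strand): gtggtgGGATGGCCACCTgtgagg
IAA14 (chr4:8349481-8349504, minus strand): gtggtgGGTTGGCCACCGgtgagg
IAA17 (chr1:1136941-1136964, plus strand): gttgtgGGATGGCCACCGgtgaga
IAA19 (chr3:5264310-5264333, plus strand): gtggtgGGGTGGCCACCGgtttgt
The 4 core codons took 7 different spellings among the 10 genes. IAA3 and IAA4 shared all 24 bases of the window.

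Auxin response factors bind the letters TGTC, best known within TGTCTC, so the 250 bases before each start were searched for both on either strand. Windows of 4 genes are shown, IAA6 and IAA19 for the stretch they share. IAA1 and IAA17 are examples, picked with their values known, of a gene that rose with CHX and one that was not called. The windows are written along the gene's strand from TAIR10.1, with TGTC or its reverse complement GACA in capitals.
IAA6 (chr1:19673653-19673902, minus strand): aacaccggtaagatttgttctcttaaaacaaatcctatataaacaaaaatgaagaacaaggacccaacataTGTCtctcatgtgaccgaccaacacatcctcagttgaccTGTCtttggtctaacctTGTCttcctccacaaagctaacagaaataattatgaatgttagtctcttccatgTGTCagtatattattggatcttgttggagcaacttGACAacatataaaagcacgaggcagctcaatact
IAA19 (chr3:5263751-5264000, plus strand): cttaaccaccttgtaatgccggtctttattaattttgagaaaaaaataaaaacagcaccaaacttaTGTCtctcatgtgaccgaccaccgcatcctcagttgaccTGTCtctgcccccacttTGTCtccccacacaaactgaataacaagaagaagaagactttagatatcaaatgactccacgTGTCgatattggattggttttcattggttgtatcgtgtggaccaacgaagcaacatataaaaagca
IAA1 (chr4:8360746-8360995, plus strand): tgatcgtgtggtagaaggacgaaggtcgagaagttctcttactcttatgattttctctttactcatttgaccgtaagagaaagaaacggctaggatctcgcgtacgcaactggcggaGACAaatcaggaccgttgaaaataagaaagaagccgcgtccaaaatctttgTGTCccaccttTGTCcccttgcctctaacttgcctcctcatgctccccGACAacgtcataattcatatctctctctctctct
IAA17 (chr1:1135828-1136077, plus strand): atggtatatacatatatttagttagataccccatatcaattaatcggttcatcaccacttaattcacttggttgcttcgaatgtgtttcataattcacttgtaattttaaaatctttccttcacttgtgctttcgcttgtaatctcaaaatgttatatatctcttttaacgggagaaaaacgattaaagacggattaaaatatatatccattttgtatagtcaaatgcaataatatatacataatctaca
TGTC lay in 9 of the 10 windows, against 74.8% of 27443 promoters of this length, with 1.47 matches in the average promoter. IAA5 had 7 matches, IAA6 had 5, and IAA1, IAA2, IAA3 and IAA19 had 4 each. IAA14 had 3, IAA4 and IAA7 had 1 each, and IAA17 had 0. The contrast of IAA1 and IAA17 did not hold over all members: IAA4, with 1 match, was called higher with CHX than with heat alone at every time. IAA14, with 3 matches, was called at none. The full TGTCTC lay in 4 of 10 windows, those of IAA1, IAA5, IAA6 and IAA19, against 11% of promoters. IAA6 and IAA19 shared a run of 23 bases, the longest of any 2 members, that began 181 bases before the start of IAA6 and 186 before that of IAA19. IAA1 and IAA2 shared a run of 17 bases. Of letters of heat shock elements, GAANNTTC lay in 1 window (IAA3), against 9.65% of promoters, and TTCNNGAA in 0, against 7.77%, counts near the share of all promoters. A match of letters is a description and not a binding site.

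Levels of different genes can be compared only per length, here as normalized counts per kb of transcript. In unheated wild type IAA7, whose gain-of-function allele is axr2, led at 2604 per kb. IAA2 (984) and IAA17 (971), the axr3 gene, came next and overlapped in their libraries, as IAA17 did with IAA14 (668), known from solitary-root. IAA4 (487), IAA3 (288), IAA1 (198), IAA19 (142), IAA6 (28.2) and IAA5 (14.3) followed without overlap between neighbours. IAA7 thus stood far above IAA5 and IAA6 in the same seedlings.

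With CHX at 90 min IAA2 led at 4702 per kb, and IAA7 (2815) overlapped IAA17 (1748). In upf at 45 min IAA2 (2966) stood above IAA7 (2359) without overlap, and at 90 min the 2 genes overlapped (2661 and 2734). In wild type at 90 min IAA7 held the first place at 5000 per kb and IAA4 (35.4) had moved to ninth, overlapping IAA1 (45.8). The sum over the 10 genes was 13279 ± 1951 per kb with CHX at 90 min, 9166 ± 1098 in upf at 90 min, 9385 ± 1160 in wild type at 90 min and 6383 ± 174 in unheated wild type (SD, n = 3 each). IAA7 made up 53.1% of that sum in wild type at 90 min, against 40.7% before heat. IAA2 made up 35.7% with CHX at 90 min, against 12.4% in wild type heated without it.

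**Figure D1:**
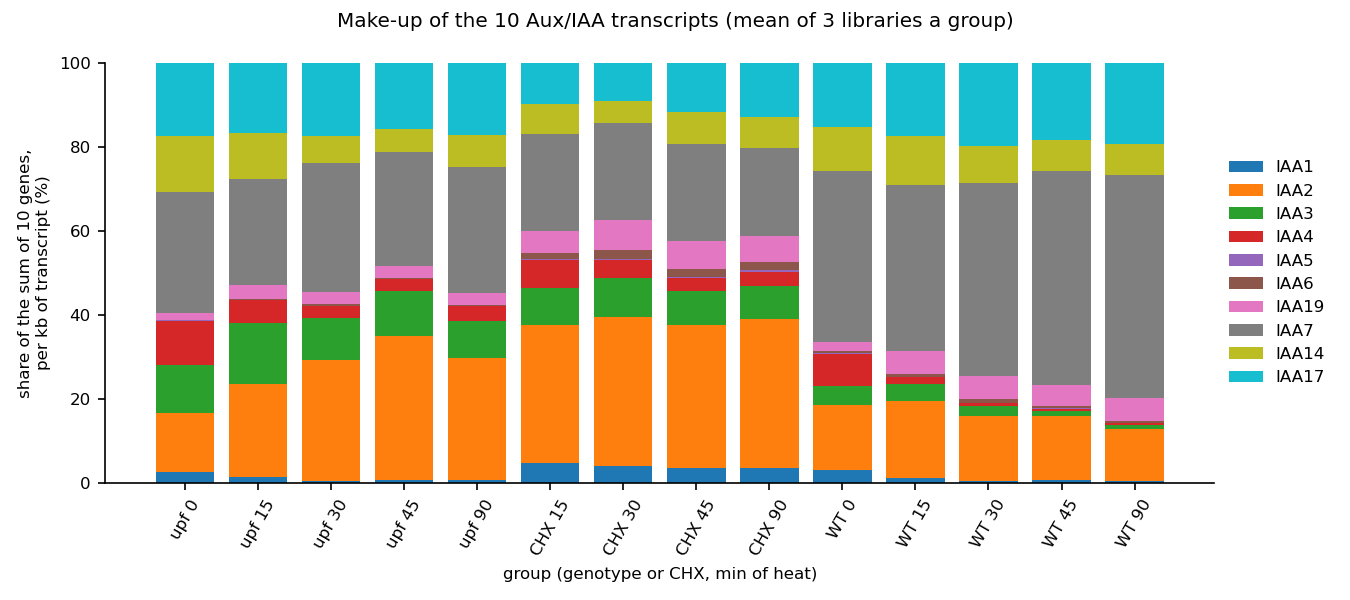
Stacked bars give each gene's share (%) of the summed level per kb of the 10 genes, as the mean of 3 libraries, with upf on the left, wild type with CHX in the middle and wild type without CHX on the right, each by minutes of heat. IAA7 takes 53.1% in wild type at 90 min, and IAA2 takes 35.7% with CHX at 90 min.

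All 10 genes passed the filter (at least 10 in at least 3 libraries). IAA5 did so mainly through CHX: 15 libraries reached 10, of which 12 were all those with CHX, and it was at 0 in 2 libraries. IAA6 reached 10 in 39 libraries, and the other 8 genes in all 42. A change was called where limma's adjusted p over 20747 genes was under 0.05 and the fold at least 2, on log2(value + 1).

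**Figure D2:**
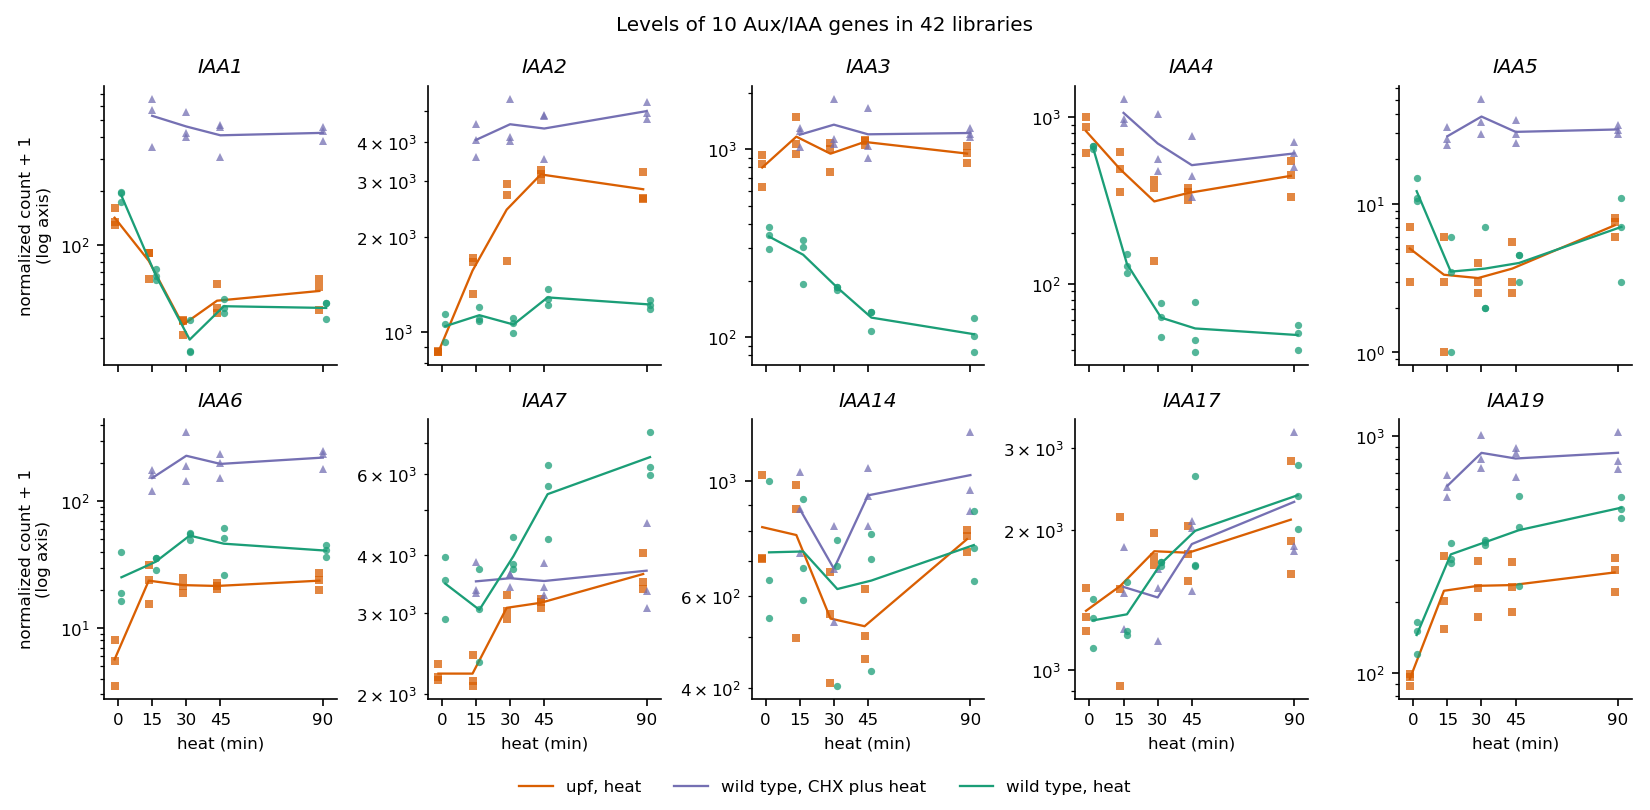
Each panel plots 1 gene's normalized count plus 1 (log axis) against minutes of heat, with a point per library and a line through group means for upf (orange squares), wild type with CHX (violet triangles) and wild type without CHX (green circles). The violet points of IAA1, IAA5 and IAA6 lie above every green and orange point, and the orange points of IAA3 and IAA4 lie above the green ones from 15 min on.

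Heat alone in wild type split the family. IAA4, an early auxin-response gene first described as ATAUX2-11, and IAA1, known from the dominant allele axr5, fell at every time from 15 min. IAA19, the massugu2 repressor of hypocotyl bending, rose at every time. IAA2, IAA7, IAA14 and IAA17 were not called at any time.

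IAA4 had 55.5, 49.5 and 39 normalized counts after 90 min, against 640.5, 671 and 670.5 before heat. Its log2 change was -2.34 at 15 min (SE 0.33, adjusted p = 4.8e-07), -3.43 at 30 min, -3.69 at 45 min and -3.77 at 90 min (adjusted p = 4.5e-12). By 15 min the 3 libraries, at 148.5, 114.5 and 127, already lay below every unheated one. The 90 min p-value uses libraries of the contrast that led to the list, so it is not independent of that choice.

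IAA1 had 62.5, 72 and 66 at 15 min and 24, 37 and 24.5 at 30 min, against 195, 194 and 172 before heat. Its log2 change was lowest at 30 min, -2.70 (SE 0.20, adjusted p = 1.6e-13), and stood at -2.09 at 90 min. Heated and unheated libraries of IAA1 did not overlap at any time.

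IAA3, the SHY2 repressor that limits the root meristem, had 125.5, 101 and 82 at 90 min, against 350, 382.5 and 294 before heat. It was called at 45 min (-1.43, SE 0.22, adjusted p = 6.3e-07) and 90 min (-1.74, adjusted p = 1.4e-08). The 90 min p-value of IAA3 has the same limit as that of IAA4. At 30 min its change was -0.89, short of 2-fold. Levels of IAA3 thus stepped down with time where those of IAA1 were lowest at 30 min.

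IAA5, a low gene, fell at 15 min (-2.12, SE 0.55, adjusted p = 0.00269), 30 min (-1.98) and 45 min (-1.61), with 14, 9.5 and 10 before heat and no more than 6 in those heated libraries. Without replicate 2 at 15 min, where it was at 0, the value was -1.39 and the call was lost (adjusted p = 0.061). At 90 min its change was -0.97 without a call, and -1.39 with a call (adjusted p = 0.0443) when replicate 2 of that time was left out. These levels are a few reads.

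IAA19 had 451, 491 and 550 at 90 min, against 118.5, 163 and 148.5 before heat. Its log2 change was 1.14 at 15 min, 1.31 at 30 min, 1.40 at 45 min and 1.79 at 90 min (SE 0.24, adjusted p = 4.9e-08). Its paralog IAA6 rose at 30 min, with 48.5, 54 and 55.5, against 18, 39 and 15.5 before heat (1.21, SE 0.32, adjusted p = 0.00181), and at 15, 45 and 90 min its values were 0.51, 0.90 and 0.81 without a call. These calls turned on single libraries: without unheated replicate 3 the 30 min value was 0.96 and not called, and without unheated replicate 2 those at 45 and 90 min were 1.30 and 1.20 and called, as was 1.27 at 45 min without replicate 2 of that time. IAA7, the most abundant member, reached 5960.5, 6212 and 7383.5 at 90 min, against 2912, 3533 and 3961.5, a change of 0.92 (adjusted p = 2e-06) that was under 2-fold. IAA17 was close to it (0.89), and IAA14 stood at 0.08 (95% interval -0.45 to 0.62). Without unheated replicate 3 IAA7 was at 1.02 and called, and without replicate 1 at 90 min IAA17 was at 1.01 and called.

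In counts, 1, 2, 1 and 1 of the 10 genes rose at 15, 30, 45 and 90 min, where 8.92%, 11.5%, 12.7% and 12.2% of all genes did. The family had 3, 3, 4 and 3 genes that fell, against 5.27%, 16.8%, 20.8% and 23.6% of all genes. The median change at 90 min was 0.16 over the 10 genes, against -0.14 over all genes tested. When every library was scaled to 1 common total, the median change over all genes tested became -0.22, -0.65, -0.86 and -0.91. On that scale IAA19 was at 0.98, 0.78 and 0.65 at 15, 30 and 45 min, under 2-fold, and at 1.02 at 90 min, where it was called, and IAA6 was at 0.69 at 30 min. The split became 0, 0, 0 and 1 higher and 3, 4, 4 and 4 lower, with IAA3 at 30 min (-1.43) and IAA5 at 90 min (-1.64) among the calls. IAA14 and IAA2 at 90 min turned to -0.69 and -0.54, uncalled on either scale. With median-of-ratios scaling IAA7 (1.04) and IAA17 (1.01) were called at 90 min, which made 3 higher.

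CHX added to heat asks what the same heat does when translation is blocked. Of the 10 genes, 6 were higher with CHX than without it at all 4 times: IAA1, IAA2, IAA3, IAA4, IAA5 and IAA6. IAA19 was higher too, called at 30 and 45 min. IAA7, IAA14 and IAA17 were not called at any time, and no member was called lower.

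IAA1 had 378, 454.5 and 431 with CHX at 90 min, against 46, 46.5 and 37.5 with heat alone. The log2 difference was 2.91 at 15 min, 3.97 at 30 min (SE 0.20, adjusted p = 2.4e-16), 3.15 at 45 min and 3.25 at 90 min. At 30 min this was 15.7-fold, the highest value of a member in this comparison.

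IAA4 had 502, 706.5 and 604.5 with CHX at 90 min, against 55.5, 49.5 and 39 without. Its differences were 3.01, 3.42, 3.23 and 3.63 at the 4 times (SE 0.33, adjusted p = 1e-10 at 90 min). For IAA3 the libraries with CHX at 90 min held 1209, 1292.5 and 1155.5, against 125.5, 101 and 82 without, and the difference grew to 3.57 (SE 0.22, adjusted p = 1.1e-14) at 90 min, with 2.15 at 15 min. Both genes had libraries with CHX above all libraries with heat alone at each time. The 90 min p-values of IAA3 and IAA4 use wild-type libraries of the contrast that led to the list. They are not independent of that choice.

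IAA2, the most abundant of these, had 4713, 4904 and 5346.5 with CHX at 90 min, against 1218.5, 1265 and 1183 without. Its difference was 1.83, 2.09, 1.76 and 2.03 at 15, 30, 45 and 90 min (SE 0.15, adjusted p = 8.6e-13 at 90 min). The 90 min p-value of IAA2 has the same limit as those of IAA3 and IAA4. IAA6 had 177.5, 233.5 and 250, against 40, 44 and 35.5 (2.43, SE 0.32, adjusted p = 2e-07). IAA5 had 30.5, 33 and 28.5, against 2, 10 and 6 (2.37, SE 0.55, adjusted p = 0.00067). At the earlier times IAA6 lay between 1.99 and 2.19 and IAA5 between 2.94 and 3.63.

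IAA19 had 734.5, 1008 and 802 with CHX at 30 min, against 361.5, 346.5 and 356.5 without (1.24, SE 0.24, adjusted p = 7.7e-05). At 15 and 90 min its differences were 0.96 (adjusted p = 0.0047) and 0.76 (adjusted p = 0.00927), under 2-fold, and at 45 min 1.08 (adjusted p = 0.0004). The 15 min value was 1.047 without replicate 2 of wild type and 1.037 without replicate 3 with CHX, called in both. Without replicate 2 of wild type at 45 min, at 230.5 the lowest of its group, the 45 min value was 0.73 and no longer called. The libraries of IAA19 with and without CHX did not overlap at any time.

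IAA7 had 3344.5, 3074 and 4684 with CHX at 90 min, against 5960.5, 6212 and 7383.5 without, a difference of -0.83 (95% interval -1.14 to -0.53, adjusted p = 2.3e-05) that stayed under 2-fold. Without replicate 3 with CHX it was -1.02 and called lower. IAA17 was at -0.09 (-0.58 to 0.39) and IAA14 at 0.44 (-0.09 to 0.98). With CHX, IAA7 stood at 3509, 3564, 3515 and 3701 on average over the 4 times, and wild type without CHX at 3045, 3980.5, 5419.7 and 6519.

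Counted over the family, 6, 7, 7 and 6 of 10 genes were higher at 15, 30, 45 and 90 min, where 4.24%, 12.6%, 12.1% and 13.5% of all genes were. None was called lower, where 0.492%, 2.44%, 2.48% and 2.77% of all genes were. Members lower at an unadjusted p under 0.05 in limma's test numbered 0, 0, 1 and 1, and the share of all genes at that level was not counted. IAA7 at 90 min also passed on adjusted p and missed the call only on the 2-fold threshold. The median difference over the 10 genes was 1.99, 2.04, 1.96 and 2.20 at the 4 times, against 0.02, 0.06, 0.06 and 0.08 over all genes tested. With equal totals the count was 7 at each time, with the median of all genes at 0.12, 0.32, 0.40 and 0.51.

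Set against unheated wild type, CHX plus heat shows which genes passed their starting level. IAA2, IAA3, IAA6 and IAA19 were above it at every time, with log2 changes at 90 min of 2.26, 1.84, 3.24 and 2.55 (limma adjusted p of 5.6e-09 or less). IAA1 was above it as well, at 1.44, 1.27, 1.101 and 1.17, of which the last 2 became 0.70 and 0.83 with equal totals, and the 45 min call ended without replicate 1 with CHX (0.998). IAA6 went furthest: 144, 350.5 and 189 at 30 min, against 18, 39 and 15.5 before heat. The p-values of IAA2 and IAA3 use unheated libraries of the contrast that led to the list.

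IAA4 took another course. It had 1290.5, 972.5 and 916.5 with CHX at 15 min, against 640.5, 671 and 670.5 before heat (0.66, 95% interval -0.0036 to 1.33), and at 90 min its change was -0.14 (-0.81 to 0.53). With CHX it thus stayed within 2-fold of its starting level on average, where heat alone left 48.0 ± 8.35 of 661 ± 17.5. Both comparisons share the unheated libraries.

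IAA5 was called at 30, 45 and 90 min (1.65, 1.33 and 1.40), with adjusted p-values of 0.0161, 0.0473 and 0.034. Leaving out any of the 6 libraries ended the call at 45 min, with values of 1.19 to 1.49, and leaving out any but unheated replicate 1 ended that at 90 min, with values of 1.30 to 1.45. At 30 min it ended without unheated replicate 2 (1.55) or replicate 2 with CHX (1.43). With equal totals IAA5 was at 0.95 at 45 min and 1.09 at 90 min, not called, which left 4 genes higher at each of these times. In all, 5, 6, 6 and 6 genes were called higher at the 4 times, against 9.37%, 12.5%, 12.4% and 12.4% of all genes. None was called lower, against 1.2%, 5.29%, 8.7% and 14.3% of all genes called lower. At an unadjusted p under 0.05 in limma's test 0 members were lower at each time. The share of all genes at that level was not counted.

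**Figure D3:**
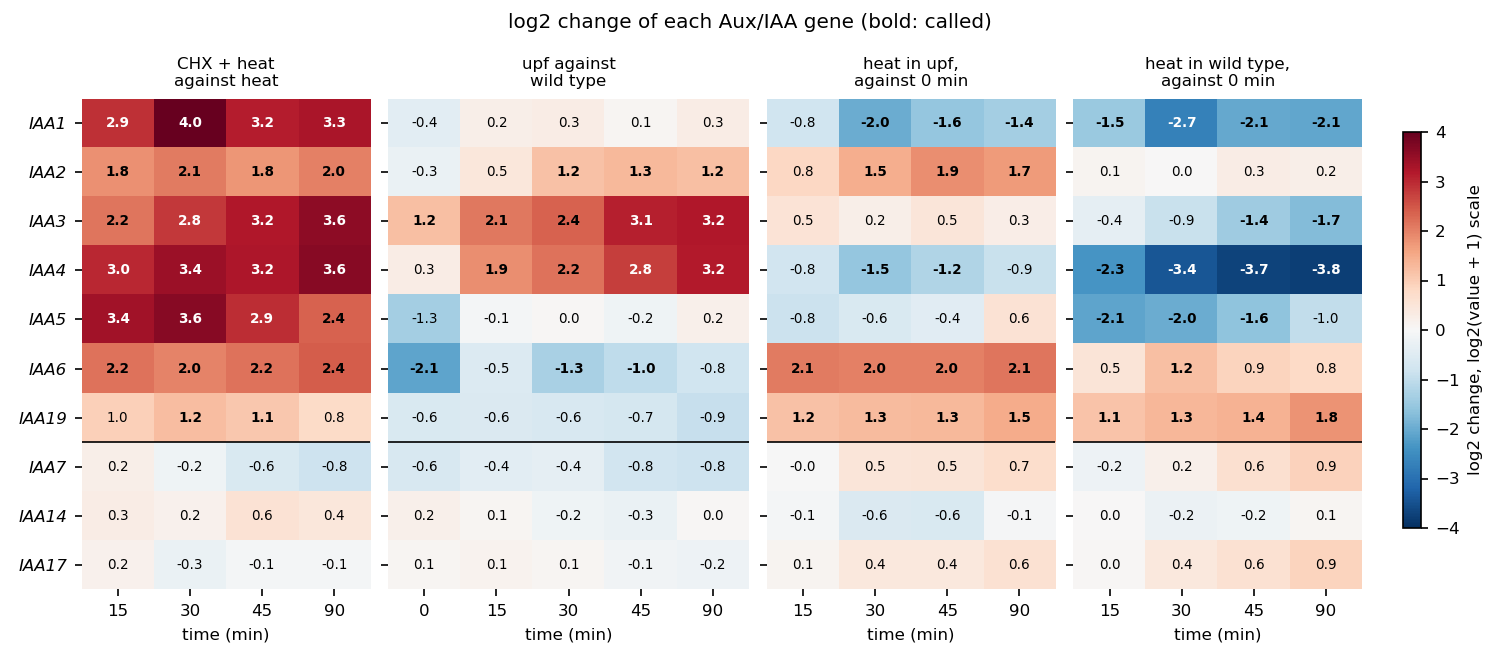
Cells give the log2 change, on the log2(value + 1) scale, of each gene (rows) by minutes of heat (columns) in 4 comparisons, with red for higher and blue for lower in the group named first. Bold marks a call, except for upf against wild type at the longest heat. Those values helped to choose the family and are given without a test, so bold there is not a call. In the panel for CHX the 6 genes from IAA1 to IAA6 are called at every time. In the panel for upf the calls above 0, all before the longest heat, are those of IAA2, IAA3 and IAA4.

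Before heat 2 members were called in the mutant against wild type. IAA3 was higher in upf, with 629.5, 930.5 and 835, against 350, 382.5 and 294 in wild type (1.21, SE 0.22, adjusted p = 7.8e-05). Its p-value uses unheated libraries of the contrast that led to the list. IAA6 was lower, with 4.5, 7 and 2.5, against 18, 39 and 15.5 (-2.12, SE 0.32, adjusted p = 7.5e-06). IAA5 had 2, 4 and 6, against 14, 9.5 and 10, a difference of -1.35 that missed the call (SE 0.55, adjusted p = 0.0866). It was called when the fit held only the 2 groups compared (adjusted p = 0.0332), and the authors' deposited table gives -1.41 with their adjusted p at 0.00124. In all 3 genes the 2 genotypes did not overlap. The same held for IAA1, IAA2, IAA7 and IAA19, which were not called. How many of all genes separate in this way was not counted. By the rule for a call, which is another measure, 5.99% of all genes were higher and 1.48% lower.

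During the heat 3 genes, IAA2, IAA3 and IAA4, were called higher in upf than in wild type at 30 and 45 min. IAA3 in upf was at 2.10 over wild type at 15 min, 2.35 at 30 min and 3.11 at 45 min (SE 0.22, adjusted p = 2.1e-13). Without replicate 3 of upf at 30 min the value at that time was 2.50. At 45 min its libraries held 1100.5, 1052 and 1125 in upf, against 135.5, 135.5 and 107.5 in wild type. At 90 min they held 847.5, 1042 and 952.5, against 125.5, 101 and 82. At 45 min the levels in upf thus lay within the range of wild type treated with CHX, from 899.5 to 1657.5. At 90 min they lay below the range with CHX, from 1155.5 to 1292.5, and at 15 and 30 min the ranges overlapped. This comparison of values was not tested.

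IAA4 did not differ beyond the threshold before heat, at 606.5, 998.5 and 866 in upf, against 640.5, 671 and 670.5 in wild type (0.29, 95% interval -0.38 to 0.96). At 15 min it had 487.5, 614 and 354.5, against 148.5, 114.5 and 127 (1.86, SE 0.33, adjusted p = 4.8e-05). At 45 min it had 376.5, 317.5 and 354, against 44.5, 76 and 37.5 (2.77, adjusted p = 3.3e-08). At 30 min the difference was 2.19, with 376, 420.5 and 135 in upf, of which the 135 belongs to the library that stands apart. Without that library it was 2.70.

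At 45 min IAA2 had 3024.5, 3262 and 3155 in upf libraries, against 1371.5, 1274.5 and 1214.5 in wild-type libraries (1.29, SE 0.15, adjusted p = 1.7e-08). It was called at 30 min too (1.17, and 1.41 without replicate 3), while before heat it stood at -0.26 and at 15 min at 0.46. IAA2 and IAA4 thus joined IAA3 above wild type during the heat.

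On the lower side, IAA6 was called at 30 min (-1.30 with and without replicate 3 of upf, adjusted p = 0.00229 with it) and 45 min (-1.02, adjusted p = 0.0154). The 45 min call was lost without replicate 3 of upf (-0.98), replicate 1 of wild type (-0.90) or replicate 3 of wild type (-0.76). IAA7 was below wild type by less than 2-fold at each time, with values of -0.64, -0.44, -0.37, -0.76 and -0.84 at 0, 15, 30, 45 and 90 min. IAA19 likewise lay between -0.57 and -0.92, and at 45 min was called at -1.06 without replicate 2 of wild type. IAA14 and IAA17 stayed between -0.26 and 0.19.

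At 15, 30 and 45 min 2, 3 and 3 members were higher in upf, against 6.29%, 8.18% and 8.41% of all genes, and 0, 1 and 1 were lower, against 1.37%, 1.61% and 1.97%. At 90 min IAA2, IAA3 and IAA4 stood at 1.20, 3.21 and 3.16, where 8.82% of all genes were called higher and 1.99% lower. These values helped to choose the family.

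Within upf, heat raised IAA2, IAA6 and IAA19 and lowered IAA1 and IAA4, and IAA3 was not called at any time. IAA2 rose at 30, 45 and 90 min (1.45, 1.86 and 1.70, SE 0.15), with 3193, 2655 and 2630 at 90 min, against 862, 864 and 870.5 before heat. IAA6 and IAA19 rose at all 4 times, IAA6 with 26, 23 and 19 at 90 min, against 4.5, 7 and 2.5 (2.13, SE 0.32, adjusted p = 7e-07). IAA19 had 303, 271 and 219 at 90 min, against 95, 97.5 and 87 (1.48, SE 0.24, adjusted p = 2e-06), and its 15 min call was lost without replicate 1 of that time (0.90).

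IAA1 fell in upf at 30, 45 and 90 min (-1.99, -1.55 and -1.37), with 63.5, 42 and 57 at 90 min, against 160.5, 133.5 and 128. IAA4 fell at 30 and 45 min (-1.53 and -1.21) and stood at -0.89 at 90 min, or -1.098 and -1.059, both called, without replicate 1 of upf at 0 or at 90 min. Without replicate 3 of upf at 30 min the values at that time were -1.02 for IAA4, -1.90 for IAA1, 1.70 for IAA2, 2.02 for IAA6 and 1.08 for IAA19, all called. With equal totals IAA19 was under 2-fold at all 4 times (0.99, 0.73, 0.64 and 0.83), as was IAA2 at 30 min (0.90). On that scale IAA1 at 15 min (-1.004), IAA14 at 30 and 45 min (-1.14 and -1.28) and IAA4 at 90 min (-1.55) were called lower, and the split became 1, 1, 2 and 2 higher and 1, 3, 3 and 2 lower. Members that rose numbered 2, 3, 3 and 3, against 8.03%, 10.7%, 11.4% and 11% of all genes, and those that fell 0, 2, 2 and 1, against 4.65%, 13.7%, 17.7% and 20.1%.

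Whether the heat responses differ between genotypes was tested as an interaction. At 15 min no member was called in limma's test, while IAA4, IAA6 and IAA2 had estimates of 1.58, 1.57 and 0.72 (adjusted p of 0.334 to 0.344). At that time 0.0145% of all genes were called higher and 0.0482% lower. Without adjustment 5 members had a p under 0.05 in limma's test. The share of all genes at that looser level was not counted, so this number has no background to be read against. At 45 min 3 genes had the higher response in upf: IAA4 by 2.48 (SE 0.46, adjusted p = 0.00099), IAA3 by 1.90 (SE 0.31, adjusted p = 0.00014) and IAA2 by 1.55 (SE 0.21, adjusted p = 1.3e-05). Of all genes 1.62% were called higher and 0.588% lower.

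At 30 min the same 3 genes passed, IAA4 by 1.90 (adjusted p = 0.0249), IAA3 by 1.14 (adjusted p = 0.0459) and IAA2 by 1.43 (adjusted p = 8.6e-05), with 0.689% of all genes called higher and 0.371% lower. Without replicate 3 of upf at 30 min they were 2.42, 1.29 and 1.68 and stayed called. The call of IAA3 was lost when any of 9 of the 12 libraries was left out (0.98 to 1.18), that of IAA4 for 6 of the 12 (1.60 to 1.89), and both were lost with equal totals (1.12 and 1.88). At 90 min the values were 2.88, 2.00 and 1.47, beside 1.9% of all genes called higher and 0.468% lower, and they are given without a test. IAA1 stood at 0.71, 0.50 and 0.71 at 30, 45 and 90 min and was not called, and IAA19 lay between -0.31 and 0.04 at the 4 times. The 3 genes that passed do not share 1 path to the difference: in upf IAA2 rose, IAA3 was not called and IAA4 fell at 30 and 45 min, while in wild type IAA2 was not called and IAA3 and IAA4 fell.

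In the genome 6 of the members form 3 divergent pairs, in which the genes point away from each other with 1 annotated gene between them. On chromosome 1 IAA3 (chr1:1128149-1129689, minus strand) and IAA17 (chr1:1136078-1138663, plus strand) lie 6.388 kb apart in TAIR10.1. IAA2 (chr3:8180646-8182095, minus) and IAA7 (chr3:8194606-8197161, plus) are 12.51 kb apart, and IAA14 (chr4:8347822-8350263, minus) and IAA1 (chr4:8360996-8362033, plus) 10.732 kb. In each pair 1 gene was called with CHX at all 4 times and its neighbour at none.

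The differences at 90 min of CHX plus heat against heat were 3.57 for IAA3 and -0.09 for IAA17, 2.03 for IAA2 and -0.83 for IAA7, and 3.25 for IAA1 and 0.44 for IAA14. The main transcripts of the called neighbours have 2 or 3 exons, and those of IAA7 and IAA17 have 5, as does 1 form of IAA14. Across the 14 group means of log2(value + 1) Pearson's r was -0.19 between IAA3 and IAA17, 0.01 between IAA2 and IAA7, and 0.71 between IAA1 and IAA14. These means share libraries and scaling, and r is a description. Closeness in the genome thus went with unlike profiles in 2 of the 3 pairs.

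**Figure D4:**
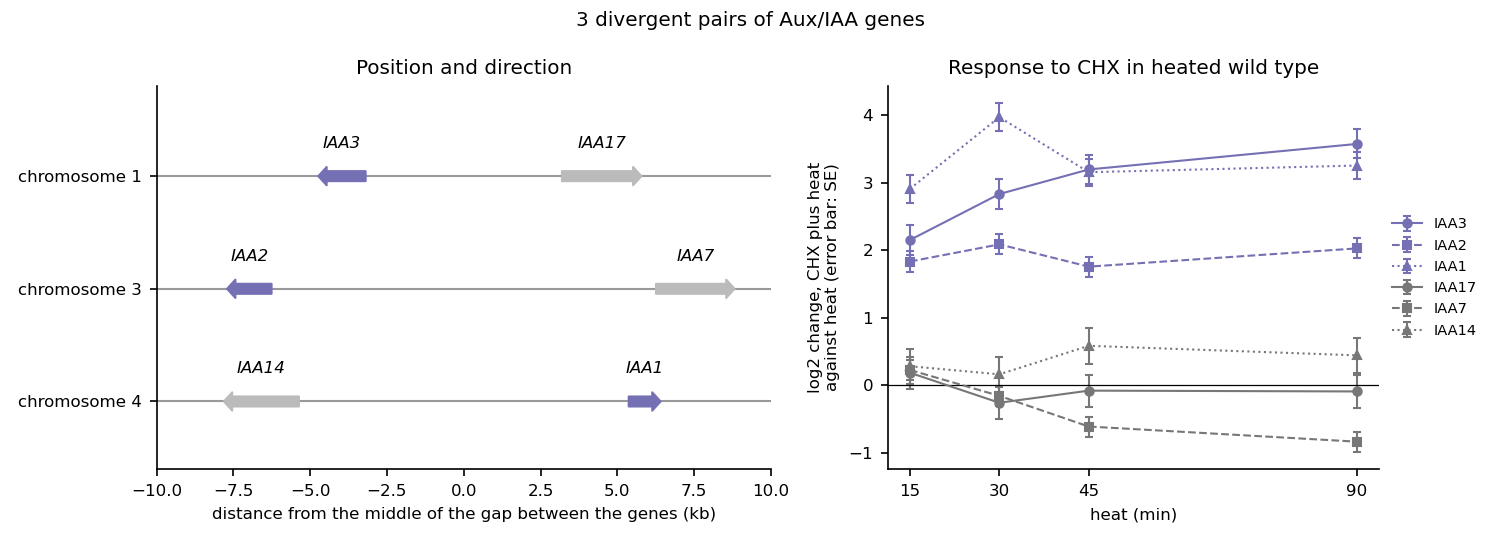
Left, arrows show position and direction of the 3 divergent pairs against the distance in kb from the middle of the gap between them. Right, the log2 change of CHX plus heat against heat (error bars, SE) is plotted by minutes of heat: IAA1, IAA2 and IAA3 (violet) run between 1.76 and 3.97, and IAA7, IAA14 and IAA17 (grey) between -0.83 and 0.58.

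The 3' end of IAA3 overlaps AT1G04230 on the other strand by 640 bases, and IAA5 overlaps the cyclin gene AT1G15570 by 48 bases. The kit was stranded, but the sources used here do not say whether the counting used strand, so the split of reads between such partners is uncertain. AT1G04230 averaged 391 ± 49.4 with CHX at 90 min, against 313 ± 24.5 without, and at 45 min 309.5 ± 29.5 in upf seedlings, against 310.3 ± 12.4 in wild-type seedlings (SD, n = 3 each). Over the same pairs of groups IAA3 differed by 11.9-fold and 8.65-fold. In other pairs AT1G04230 moved more: unheated wild type averaged 161 ± 10.0, below the 313 ± 24.5 at 90 min of heat, while IAA3 fell. Unheated upf averaged 214 ± 9.29 for AT1G04230, above unheated wild type, as IAA3 was. The part of the overlap in the values of IAA3 and its forms was not tested.

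Among the 17 transcripts, 4 genes have more than 1 form: IAA2, IAA3, IAA7 and IAA14. Use of a form, its log2 change against the gene's other forms, was tested with limma's diffSplice over 22958 transcripts, 11 of them members. IAA3 has a main form, AT1G04240.1, and AT1G04240.2, which starts upstream and has 870 coding bases, against 570 in the main one. AT1G04240.2 had 15.5, 16.5 and 7 in wild type at 90 min, against 2.5, 2.5 and 2.5 before heat, while AT1G04240.1 had 110, 84.5 and 75, against 347.5, 380 and 291.5.

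Its share of IAA3 was 12.4% ± 3.9 at 90 min, against 0.739% ± 0.101 before heat (SD, n = 3 each). Use of AT1G04240.2 rose in wild type at 30 min (2.66, adjusted p = 0.0307), 45 min (3.39, adjusted p = 0.00363) and 90 min (3.83, adjusted p = 0.00092). The 30 min call ended when any library but replicate 1 of that time was left out (2.36 to 2.77, adjusted p up to 0.119), and those at 45 and 90 min held without each of the 6 libraries. With CHX at 90 min the share was 0.527% ± 0.156, and use of AT1G04240.2 fell against heat alone by 4.62 (adjusted p = 0.00029). In upf at 90 min its share was 1.91% ± 0.455. AT1G04240.2 lay between 0 and 46.5 in the 42 libraries, so its share rests on few reads, and in the authors' deposited table its change in wild type at 90 min was 2.38 with their adjusted p at 0.0936.

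IAA14 has 4 forms, which divide its reads among them. Use of AT4G14550.3 was lower in wild type at 90 min, with 39.5, 31 and 108.5, against 221, 132 and 100.5 before heat (-1.80, adjusted p = 0.015). That call ended without unheated replicate 1 (-1.72) or without replicate 1 or 2 at 90 min (-1.60 and -1.55). It was lower too with CHX at 45 min (-1.73, adjusted p = 0.0262) and 90 min (-1.76, adjusted p = 0.0211), each against unheated wild type. The 45 min call ended without unheated replicate 1 or 2 or replicate 1 or 3 with CHX (-1.38 to -1.72), and the 90 min call without unheated replicate 1 or 2 or replicate 3 with CHX (-1.15 to -1.74). The libraries overlap in these comparisons.

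IAA7 has 3 forms. AT3G23050.3 keeps an intron and is the only member transcript whose stop codon lies before its last exon junction, by 444 bases, a layout known to attract NMD. In unheated seedlings it had 105, 176 and 155 in upf, against 326.5, 333 and 354 in wild type, and its share of IAA7 was 6.57% ± 1.69, against 9.86% ± 1.20. In the authors' deposited table its log2 change in upf at 0 min was -1.22, with their adjusted p at 2.7e-06. The libraries of the 2 genotypes did not overlap, and its use against the other forms was not called.

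No member form was called in upf against wild type at 0, 15, 30 or 45 min, where 2.08%, 3.33%, 7.12% and 6.01% of all transcripts were. In heated wild type 0, 2, 2 and 3 of 11 forms were called at the 4 times, against 3.29%, 14.4%, 17.2% and 16.7%. The calls in IAA3 count both of its forms, which mirror each other. With CHX against heat 0, 2, 2 and 2 were called, against 1.01%, 6.84%, 6.45% and 5.94%, and against unheated wild type 0, 0, 2 and 1, against 5.07%, 10%, 11.8% and 13.2%. The form AT3G23050.2 of IAA7 made 1 of the calls with CHX against unheated wild type at 45 min (2.26, adjusted p = 0.0245), and this call ended without unheated replicate 1 or 3 or replicate 1 or 3 with CHX (1.40 to 2.23).

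AT3G23050.2 was far higher in single libraries, each replicate 3. It had 1495 in upf at 30 min, where the others had 126.5 and 140, 1426 with CHX at 45 min beside 546.5 and 186, and 1737.5 in wild type at 45 min beside 234.5 and 166. Wild type at 90 min had 1640 beside 183 and 281. In the library of upf at 30 min AT3G23050.1 was lower, at 1703.5 beside 2712.5 and 2509.5, and the sum over IAA7 was 3286 beside 3025 and 2914.

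**Figure D5:**
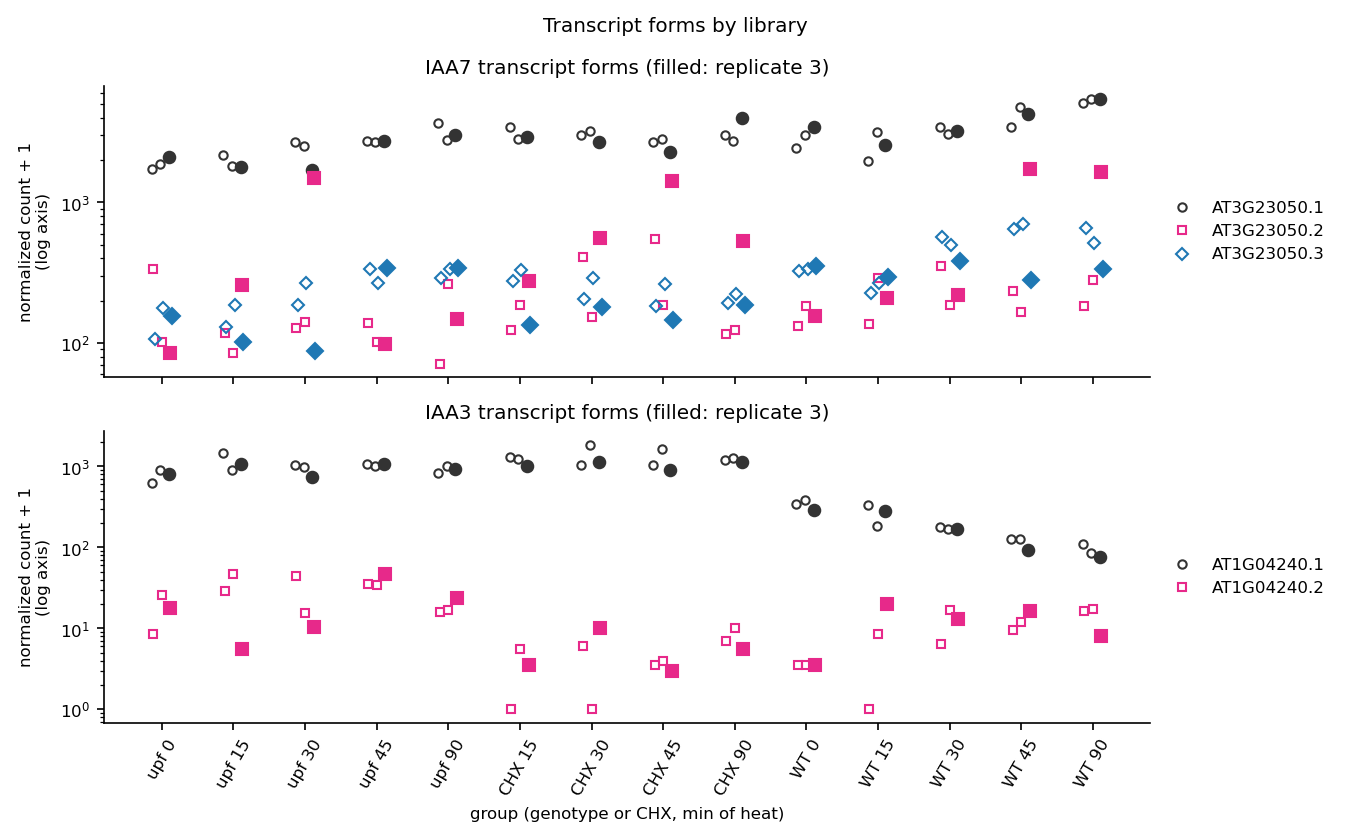
Normalized counts plus 1 (log axis) of the transcript forms of IAA7 (top) and IAA3 (bottom) are plotted by group, with upf on the left, wild type with CHX in the middle and wild type without CHX on the right, and replicate 3 filled. The filled points of AT3G23050.2 reach 1426 to 1737.5 in 4 groups, and AT1G04240.1 of IAA3 drops through the wild-type groups on the right.

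Profiles over the 14 group means were compared by Pearson's r on log2(value + 1), as a description of means that share libraries and scaling. Among members the closest 2 were IAA6 and IAA19 (0.96), which also share the promoter run printed above, then IAA1 and IAA5 (0.91) and IAA3 and IAA4 (0.87). Of all genes tested, the one most like IAA1 was HAT2 (0.98), an auxin-induced homeobox gene, followed by AT1G29500, listed as SAUR66 (0.98). IAA5 was most like another Aux/IAA gene, IAA30 (0.96), and IAA14 most like IAA28 (0.90). IAA7 was most like EFE (0.98), listed as an ethylene-forming oxidase. IAA2 was most like BEH2 (0.97), a relative of the brassinosteroid factors BES1 and BZR1, IAA3 most like EIP9 (0.97) and IAA4 most like AT1G75490 (0.98). AT1G24530 (0.96) led for IAA6, AT2G01008 (0.96) for IAA17 and AT1G13880 (0.97) for IAA19. The next 2 genes of each member had r from 0.86 to 0.98.

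Other genes of the auxin pathway were taken from lists of 77 genes. Beside their counts at 90 min stand 12.2% of all genes higher and 23.6% lower with heat in wild type, and 13.5% higher and 2.77% lower with CHX against heat. Of 19 other Aux/IAA genes 13 were tested, and at 90 min of heat in wild type 0 rose and 1 fell, IAA29 with 9.67 ± 4.25, against 49.0 ± 28.5 before heat (-2.16, limma adjusted p = 0.00014). With CHX at 90 min 3 of the 13 were higher than with heat alone, IAA29 (2.31), IAA30 (1.65) and IAA11 (1.02). The median of the 13 was 0.51, against 2.20 for the 10 members. Members and the other Aux/IAA genes are set side by side here without a test.

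Of the 8 receptor and ubiquitin ligase genes, 1 rose at 90 min of heat in wild type, AFB4 (1.03), and 4 fell, AFB3 (-1.75), AFB5 (-1.51), TIR1 (-1.41) and AFB1 (-1.38). With CHX against heat at 90 min AFB5 alone was called, as higher (1.02). None of 5 TOPLESS genes was called in either. At 90 min 1 of 15 ARF genes rose with heat, ARF18 (1.12), and 6 fell, led by ARF8 (-2.61), ARF4 (-2.51) and ARF16 (-2.42), while with CHX ARF6 was lower (-1.22).

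GH3 enzymes join auxin to amino acids. The list of GH3 and auxin inactivation genes had 2 of 7 tested genes that rose with heat at 90 min, GH3.3 (2.07) and GH3.9 (2.00), and 0 that fell. At 15, 30 and 45 min 1, 2 and 2 rose and 0, 3 and 2 fell. With CHX 1, 6, 4 and 3 were higher than with heat alone at the 4 times, and 0, 1, 0 and 0 lower, with the 90 min calls those of GH3.1 (3.19), GH3.2 (1.18) and GH3.17 (1.02). Genes of auxin synthesis had 1 of 9 that rose with heat at 90 min, YUC9 (2.14), and 6 that fell, led by YUC8 (-3.85), YUC2 (-3.63) and YUC4 (-3.47), and 5 were higher with CHX at that time, led by YUC5 (3.168), YUC3 (2.96) and YUC4 (1.67). All 9 calls among 11 auxin transport genes at 90 min were lower with heat, led by PIN7 (-3.50), PIN4 (-3.26) and PIN3 (-2.80). With CHX against heat 2, 7, 6 and 0 of them were higher at 15, 30, 45 and 90 min, against 4.24%, 12.6%, 12.1% and 13.5% of all genes, and 0 lower. In upf against wild type before heat no gene of these lists was called. During heat 1 gene of auxin synthesis was higher at 30, 45 and 90 min, where 8.18%, 8.41% and 8.82% of all genes were. Lower were 1 ARF gene at 15, 30 and 90 min and 1 gene of the GH3 list at 30 min. At 45 min 1 other Aux/IAA gene was lower. Of all genes 1.37%, 1.61%, 1.97% and 1.99% were lower at the 4 times.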

How the data were processed

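Whole-seedling RNA was sequenced in 42 libraries. The values are the authors' normalized counts per transcript, deposited as whole numbers and treated here as a score and not as raw counts; kallisto, sleuth and TAIR10 are named per the submitters' processing notes, and the sources used here do not state the scaling method. No count test was run. The authors' deposited comparison tables give log2 fold changes and adjusted p-values, quoted only where named. Transcripts were summed per gene and the 2 lanes averaged. The 20747 genes that reached 10 in 3 or more libraries were fitted with limma 3.58.1 in R 4.3.3 (limma-trend, 14 group means) on log2(value + 1), with Benjamini-Hochberg adjustment and a call at adjusted p under 0.05 and 2-fold or more. This scale understates changes of low genes. Form use was tested with diffSplice. Both fits, of genes and of forms, were tested on simulated data with known changes. Replicates came from several plants each, and p-values measure the spread between these samples. Alternatives were equal totals, median-of-ratios scaling, pseudocounts 0.5 and 5, no filter, one lane, the groups compared alone, the most abundant transcript, a replicate block and leaving out each library. Members and lists were chosen with earlier results of these data known. All members were named, with up to 3 called genes per pathway list by size of change; others that complete a small count were named after their values were seen. Of 48359 transcripts 48148 (99.6%) matched the TAIR10.1 annotation, the source of coordinates and sequences.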

Additional observations from a re-analysis of the deposited data

Results flagged for a closer look

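The heat response of 3 members differed between upf and wild type when the difference itself was tested with limma. At 30 min the response in upf was higher by 1.43 for IAA2, 1.14 for IAA3 and 1.9 for IAA4 on the log2 scale. At 45 min it was higher by 1.55 for IAA2, 1.9 for IAA3 and 2.48 for IAA4. The family was chosen with the differences at 90 min known, so the earlier times are not independent of that choice.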

How the results depend on the processing

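Of 3630 single-gene values under alternatives in the tested comparisons, 1489 were called in both, 2051 in neither, 62 lost a call and 28 gained one. None with a call in either changed sign, and 123 called in neither did. With equal totals the heat response at 30 min was called higher in upf than in wild type for 1 member, not 3. With a pseudocount of 5, form calls numbered 2, 4, 4 and 4 for CHX plus heat against heat at 15, 30, 45 and 90 min (0, 2, 2 and 2 as reported). They numbered 2, 2 and 4 against unheated wild type at 15, 30 and 45 min (0, 0 and 2), and 2 and 2 for upf against wild type at 30 and 45 min (0 and 0). The cause was not tested.

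Same-numbered libraries had a median r of deviations near that of others (0.028 over 273 pairs, against -0.017 over 546 pairs with different numbers). On that median the numbers were not taken as pairs. Of these pairs 91 and 139 had r over 0.1, with a highest r of 0.49 and 0.435, so shared deviations of some libraries are not excluded. With the replicate block the form calls for CHX plus heat against heat at 15 min were 2 (0), and members higher with CHX than in unheated wild type at 45 min were 5 (6).

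Leaving out 1 library at a time gave 1 to 2 members called for heat in upf at 15 min and 1 to 3 for the difference of heat responses at 30 min. Form calls then ranged from 0 to 4, 2 to 4 and 2 to 5 for heat in wild type at 30, 45 and 90 min. For CHX plus heat against heat they ranged from 0 to 2, 2 to 4 and 2 to 4 at 15, 30 and 45 min. Against unheated wild type the ranges were 0 to 3 at 45 min and 0 to 2 at 90 min. Depth limits IAA5, IAA6 in upf and the minor forms, whose values are a few reads.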
